A study of Homo sapiens with 6 samples.

Results

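The genes described here encode 10 subunits of the chromosome-organizing complexes cohesin and condensin, taken by symbol from the deposited count matrix. The rule itself uses no measured value, but the members and the gene lists used below were chosen with earlier results of these data known. They comprise 5 cohesin subunits (SMC1A, SMC3, RAD21, STAG1 and STAG2) and 5 condensin subunits (SMC2, SMC4, NCAPG, NCAPH and NCAPD2). All 10 were found among the 35322 gene symbols of the matrix, and all 10 were among the 16510 genes with enough counts to be tested. RNA was sequenced from 22Rv1, an established prostate carcinoma cell line, in 6 libraries: 2 of control cells, 2 of cells with a first knockdown of the histone reader ZMYND11 (ZMYND11 kd1) and 2 with a second knockdown (ZMYND11 kd2). Both knockdowns are compared with the same control libraries. The methods describe lentiviral short hairpin RNAs, with infected cells selected and then kept in puromycin. The sample labels give no treatment for any group and the genotype of the control as WT, whereas a legend in the study names control hairpins, so it is not settled whether the control cells carried a vector or were kept in puromycin. The sources do not say which hairpin each knockdown carried, nor whether libraries of a group came from separate cultures, and the p-values therefore measure only the spread between these libraries.

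Cohesin and condensin belong to the structural maintenance of chromosomes (SMC) family of ring-shaped ATPases. In cohesin, SMC1A and SMC3 form a heterodimer that is closed by RAD21 and bound by STAG1 or STAG2, and the ring folds interphase chromatin into loops and holds sister chromatids together until anaphase. In condensin I, SMC2 and SMC4 form the heterodimer, NCAPH closes it, and NCAPD2 and NCAPG attach to NCAPH. Condensin compacts chromosomes in mitosis, and transcripts of several of its subunits are known to be more abundant in dividing cells, while the cohesin ring is present throughout the cell cycle.

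ZMYND11 itself was at 4283 and 4179 counts in control, 941 and 773 for ZMYND11 kd1, and 770 and 779 for ZMYND11 kd2, so both knockdowns carried less of the targeted transcript and their libraries did not overlap control. Libraries held 26844128 to 38193748 counts. Of the 7 prostate epithelial markers, all were detected in every library (lowest count 121), and their summed level was 1519 to 1537 CPM in control (CPM being counts scaled to a common library size, with TMM factors), 1671 to 1739 in ZMYND11 kd1 and 1158 to 1221 in ZMYND11 kd2. With library totals alone the sum of ZMYND11 kd1 lay below control instead, at 1486 to 1523 against 1707 to 1743 CPM. The summed level of 5 leukocyte, fibroblast and endothelial markers was 24.3 to 24.4 CPM in control, 75.2 to 76.0 in ZMYND11 kd1 and 31.2 to 33.1 in ZMYND11 kd2. Most of that sum was the fibroblast gene COL1A1 (23.8 to 74.8 CPM), while the endothelial gene CDH5 was at 0 in every library but one. The part of other cell types in the results was not tested. In bulk RNA, fewer cells of a type and less RNA per cell cannot be told apart.

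All 10 subunits fell in ZMYND11 kd1, SMC3 and STAG2 only without a correction for GC and transcript length, and 8 of the 10 fell in ZMYND11 kd2. These comparisons ask whether transcripts of the complexes differ once ZMYND11 is depleted. A gene was called at an adjusted p under 0.05 in edgeR's quasi-likelihood test over all genes. Calls were common, since 39.8% of all genes tested fell in ZMYND11 kd1 and 38.2% rose, and 36.9% fell in ZMYND11 kd2 and 36.5% rose. The sizes are given by complex: the cohesin subunits had a median log2 fold change of -1.31 for ZMYND11 kd1 and -0.30 for ZMYND11 kd2, that of the condensin subunits was -4.95 and -2.83, and that of all genes tested was -0.03 in each. With the correction for GC and transcript length, the middle value in ZMYND11 kd1 was -0.54 for cohesin (RAD21) and -4.43 for condensin (SMC4). No test was made of the lists, whose members were taken as given, and the complexes overlapped in ZMYND11 kd2, where SMC1A (-1.09) was lower than SMC2 (-0.78).

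**Figure D1:**
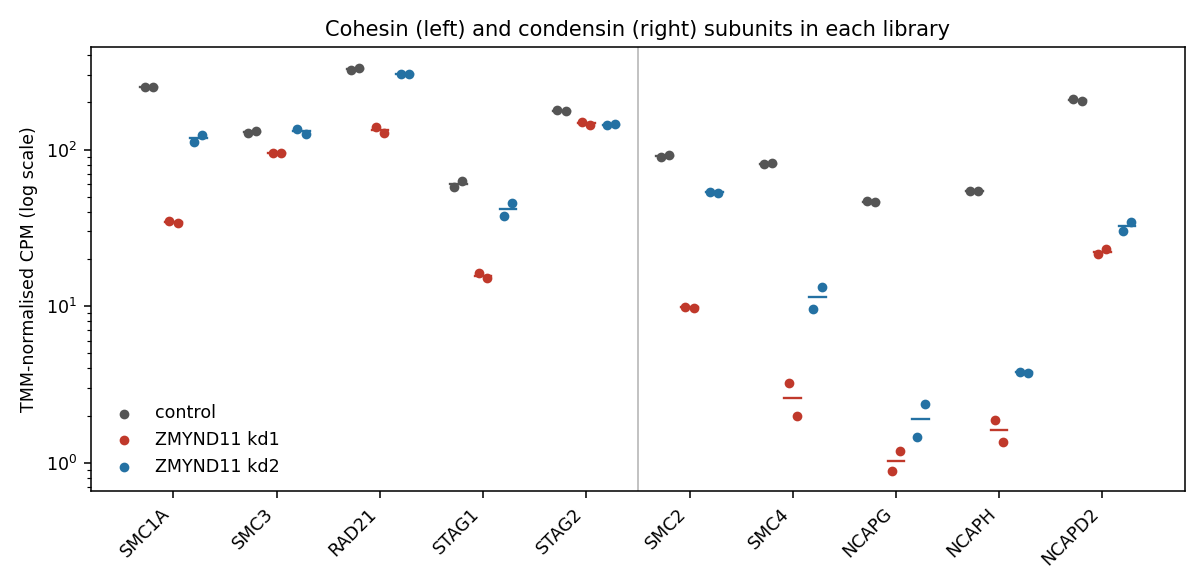
Level of each subunit in each library, in TMM-normalised CPM on a log axis, with cohesin on the left and condensin on the right of the line. Points are single libraries (2 per group) and short lines are group means. The control points of NCAPG lie at 46.0 and 47.1 CPM and its 4 knockdown points at or below 2.37 CPM, whereas the control and ZMYND11 kd2 points of SMC3 overlap.

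Among cohesin subunits, SMC1A changed most. SMC1A, an ATPase of the ring (chrX:53374149-53422728, minus strand, GENCODE 44 on GRCh38), was at 250.3 and 249.9 CPM in control, 35.1 and 34.1 CPM in ZMYND11 kd1, and 111.7 and 123.8 CPM in ZMYND11 kd2. The 3 groups did not overlap, with ZMYND11 kd1 lowest and ZMYND11 kd2 between it and control. SMC1A fell to 13.8% of its mean control level in ZMYND11 kd1 (log2 fold change -2.85, SE 0.06, adjusted p = 6.94e-14) and to 47.1% in ZMYND11 kd2 (-1.09, SE 0.06, adjusted p = 5.16e-10). The value of SMC1A in ZMYND11 kd1 was -2.09 once library trends on GC and length of the longest transcript were removed (the GC and length correction). Its partner in the heterodimer behaved differently. SMC3 (chr10:110567684-110606048, plus strand) was at 127.7 and 132.1 CPM in control, 94.9 and 95.4 CPM in ZMYND11 kd1, and 135.8 and 126.0 CPM in ZMYND11 kd2. The ZMYND11 kd1 libraries lay below control, whereas those of ZMYND11 kd2 fell on either side of it. The log2 fold change of SMC3 was -0.45 in ZMYND11 kd1 (SE 0.06, adjusted p = 3.98e-06), a direction that turned to 0.18 with that correction. For SMC3 in ZMYND11 kd2 it was 0.01 (SE 0.06, adjusted p = 0.863), with its sign differing between settings (-0.16 with library totals, adjusted p = 0.0146).

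RAD21, the kleisin subunit that closes the ring and is cut by separase at anaphase, lies on chromosome 8. It was at 324.1 and 333.9 CPM in control, 138.7 and 126.9 CPM in ZMYND11 kd1, and 305.9 and 301.7 CPM in ZMYND11 kd2. Its ZMYND11 kd1 libraries were far below control and its ZMYND11 kd2 libraries just below it. RAD21 fell to 40.4% of control in ZMYND11 kd1 (log2 fold change -1.31, SE 0.06, adjusted p = 2.83e-11), and the fall was -0.54 with the GC and length correction. The log2 fold change in ZMYND11 kd2 was -0.12 (SE 0.05, adjusted p = 0.0694). This value passed the threshold when library totals alone were used (-0.29), with at least 10 counts required in every library (-0.16) and without the first ZMYND11 kd2 library (-0.13), and changed sign with the GC and length correction (0.05).

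The alternative subunits STAG1 and STAG2, of which each cohesin ring carries 1, differed in how far they moved. STAG1 (chr3:136336236-136752403, minus strand) was at 58.0 and 62.6 CPM in control, 16.2 and 15.1 CPM in ZMYND11 kd1, and 37.8 and 45.4 CPM in ZMYND11 kd2. Its groups did not overlap and had the same order as those of SMC1A. STAG1 fell to 25.97% of control in ZMYND11 kd1 (log2 fold change -1.94, SE 0.09, adjusted p = 1.08e-10) and to 68.9% in ZMYND11 kd2 (-0.54, SE 0.09, adjusted p = 5.55e-05). STAG2 (chrX:123960212-124422664, plus strand) was at 178.1 and 176.3 CPM in control, 150.7 and 144.5 CPM in ZMYND11 kd1, and 142.7 and 145.3 CPM in ZMYND11 kd2. All 4 knockdown libraries were below both controls, and the knockdowns overlapped each other. STAG2 fell in ZMYND11 kd2 to 81.3% of control (log2 fold change -0.30, SE 0.05, adjusted p = 0.000111). In ZMYND11 kd1 its log2 fold change of -0.26 (SE 0.05, adjusted p = 0.000311) turned to 0.39 under the GC and length correction.

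All 5 condensin subunits fell in both knockdowns, and 4 of the 5 fell to less than 16% of control in each. Of all genes tested, 39.8% fell in ZMYND11 kd1 and 36.9% in ZMYND11 kd2. SMC2 (chr9:104094260-104141419, plus strand), the ATPase shared by condensin I and condensin II, was at 90.2 and 92.7 CPM in control, 9.92 and 9.80 CPM in ZMYND11 kd1, and 53.4 and 53.0 CPM in ZMYND11 kd2. The groups were well apart, and ZMYND11 kd2 lay nearer to control than to ZMYND11 kd1 on the linear scale. SMC2 fell to 10.8% of control in ZMYND11 kd1 (log2 fold change -3.21, SE 0.07, adjusted p = 6.81e-14) and to 58.2% in ZMYND11 kd2 (-0.78, SE 0.06, adjusted p = 2.62e-08). The other shared ATPase, SMC4 (chr3:160399274-160434954, plus strand), was at 80.5 and 82.4 CPM in control, 3.21 and 1.99 CPM in ZMYND11 kd1, and 9.54 and 13.3 CPM in ZMYND11 kd2. Both knockdowns were far below control, with unequal replicates that rest on 109 and 59 counts in ZMYND11 kd1. SMC4 fell to 3.19% of control in ZMYND11 kd1 (log2 fold change -4.95, SE 0.16, adjusted p = 2.47e-12) and to 14.0% in ZMYND11 kd2 (-2.83, SE 0.13, adjusted p = 1.24e-10).

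The 3 subunits specific to condensin I were also sharply lower. NCAPG (chr4:17810979-17844865, plus strand), a HEAT-repeat subunit, had 1434 and 1430 counts in control, 30 and 35 for ZMYND11 kd1, and 52 and 81 for ZMYND11 kd2. These counts correspond to 47.1 and 46.0 CPM in control, 0.883 and 1.18 CPM in ZMYND11 kd1, and 1.46 and 2.37 CPM in ZMYND11 kd2. NCAPG was far below control in all 4 knockdown libraries with log2 fold changes of -5.50 in ZMYND11 kd1 (SE 0.17, adjusted p = 1.42e-12) and -4.61 in ZMYND11 kd2 (SE 0.15, adjusted p = 4.46e-12). Of the 16510 genes tested, 175 had a lower log2 fold change than NCAPG in ZMYND11 kd1 and 163 in ZMYND11 kd2. NCAPH (chr2:96335766-96377091, plus strand), the kleisin of condensin I, was at 54.7 and 54.5 CPM in control, 1.88 and 1.35 CPM in ZMYND11 kd1, and 3.81 and 3.74 CPM in ZMYND11 kd2. The knockdown libraries lay far below control in each case. NCAPH fell to 2.96% of control in ZMYND11 kd1 (log2 fold change -5.06, SE 0.13, adjusted p = 1.81e-13) and to 6.91% in ZMYND11 kd2 (-3.85, SE 0.11, adjusted p = 1.14e-12).

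NCAPD2 (chr12:6493356-6531955, plus strand), the other HEAT-repeat subunit, was at 211.8 and 204.6 CPM in control, 21.4 and 23.0 CPM in ZMYND11 kd1, and 30.3 and 34.4 CPM in ZMYND11 kd2. Its knockdown groups were close together and far below control. NCAPD2 fell to 10.7% of control in ZMYND11 kd1 (log2 fold change -3.23, SE 0.07, adjusted p = 6.94e-14) and to 15.5% in ZMYND11 kd2 (-2.69, SE 0.07, adjusted p = 4.25e-13). Every condensin subunit kept its direction and its call against control under each of 14 alternative settings, library totals and the GC and length correction included.

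**Figure D2:**
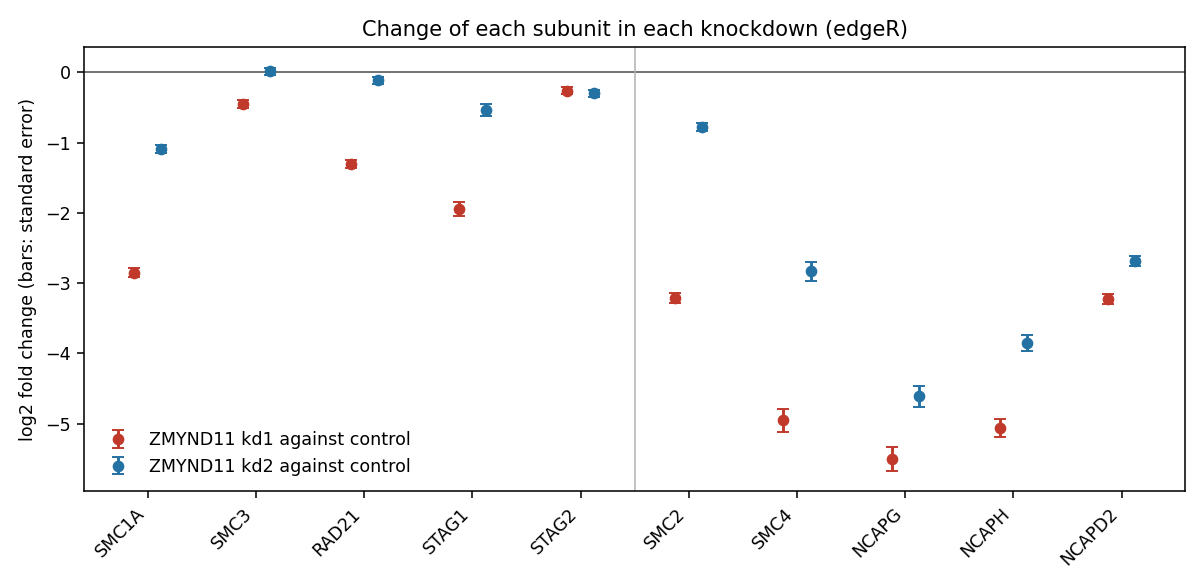
Change of each subunit against control on the log2 scale, for ZMYND11 kd1 and ZMYND11 kd2, with bars of 1 standard error. Condensin subunits range from -5.50 to -3.21 in ZMYND11 kd1, and cohesin subunits from -2.85 to -0.26, where SMC3 and STAG2 turn positive with the GC and length correction. The value of SMC3 in ZMYND11 kd2 is 0.01.

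Compared per kilobase of exon, levels in control cells were highest for NCAPD2 at 32.2 ± 0.78 CPM per kb (SD, n = 2), followed by SMC1A at 23.1 ± 0.027 and RAD21 at 22.9 ± 0.481, whose libraries overlapped. SMC2 followed at 14.1 ± 0.269 and STAG2 at 11.1 ± 0.0806 CPM per kb. SMC4 (9.97 ± 0.163) and NCAPG (9.61 ± 0.158) lay close together, and SMC3 (8.38 ± 0.2), NCAPH (8.34 ± 0.0253) and STAG1 (7.69 ± 0.417) were lowest, with SMC3 and NCAPH less far apart than the SD of SMC3. In ZMYND11 kd1 the order was headed by 2 cohesin subunits at equal levels, RAD21 at 9.23 ± 0.578 and STAG2 at 9.23 ± 0.274 CPM per kb, and NCAPG was lowest at 0.213 ± 0.0436. In ZMYND11 kd2 RAD21 was highest at 21.1 ± 0.207 CPM per kb and NCAPG again lowest at 0.394 ± 0.133. Lengths are those of all annotated exons of a gene joined, so the levels depend on which isoforms are present.

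The knockdowns also differed from each other. Of the 10 subunits, 9 were higher in ZMYND11 kd2 than in ZMYND11 kd1 (SMC3 only without the GC and length correction), against 34.9% of all genes tested that were higher and 33.8% that were lower. The exception was STAG2 (log2 difference -0.04, SE 0.05, adjusted p = 0.549). The median log2 difference was 1.19 for cohesin and 1.21 for condensin, compared with 0.02 for all genes tested. SMC2 differed between the knockdowns by 2.43 (SE 0.07, adjusted p = 5.82e-12), SMC4 by 2.11 (SE 0.19, adjusted p = 1.56e-07) and SMC1A by 1.76 (SE 0.06, adjusted p = 2.26e-11). STAG1 was higher by 1.41, NCAPH by 1.21, RAD21 by 1.19, NCAPD2 by 0.54 and SMC3 by 0.46 on the log2 scale. With the GC and length correction the difference of RAD21 was 0.59 and that of SMC3 became -0.07. The difference of STAG2 passed the threshold in opposite directions, at 0.15 with library totals (adjusted p = 0.0228) and -0.62 with the correction (adjusted p = 4.52e-09). NCAPG was higher by 0.89 (SE 0.25, adjusted p = 0.00637), a call that was lost without the first ZMYND11 kd1 library (0.69, adjusted p = 0.0738), without the second ZMYND11 kd2 library (0.51, adjusted p = 0.108) and with the correction (0.49, adjusted p = 0.0917). ZMYND11 was at 27.7 and 26.1 CPM in ZMYND11 kd1 and at 21.6 and 22.7 CPM in ZMYND11 kd2.

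Ratios of counts within a library do not depend on how libraries are scaled to each other, and they showed that subunits of 1 complex moved by unequal amounts. The ring ATPases SMC1A and SMC3 had 1.96 and 1.89 SMC1A counts per SMC3 count in control, 0.371 and 0.358 for ZMYND11 kd1, and 0.823 and 0.983 for ZMYND11 kd2. The ratio was lower in both knockdowns than in control, and lowest in ZMYND11 kd1. Per kilobase of exon, SMC1A lay below SMC3 in ZMYND11 kd1 (3.2 ± 0.065 and 6.13 ± 0.0237 CPM per kb, SD, n = 2) and above it in ZMYND11 kd2 (10.9 ± 0.79 and 8.44 ± 0.447). The kleisin followed in ZMYND11 kd1, with 2.54 and 2.53 RAD21 counts per SMC3 count in control, 1.46 and 1.33 for ZMYND11 kd1, and 2.25 and 2.39 for ZMYND11 kd2. STAG1 made up 24.6% and 26.2% of the STAG1 and STAG2 counts in control, 9.73% and 9.44% for ZMYND11 kd1, and 20.9% and 23.8% for ZMYND11 kd2. The 3 groups did not overlap in any of these ratios. Exact two-sided permutation tests of 2 against 2 libraries cannot give a p below 0.333, so these ratios are given without one.

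Within condensin, there were 1.121 and 1.125 SMC2 counts per SMC4 count in control, and the knockdowns had ratios of 3.09 and 4.91 (ZMYND11 kd1) and 5.59 and 3.98 (ZMYND11 kd2). The knockdowns overlapped each other and lay above control. NCAPD2 counts per NCAPG count were 4.49 and 4.44 in control, 24.2 and 19.5 for ZMYND11 kd1, and 20.9 and 14.5 for ZMYND11 kd2. The condensin subunits together made up 34.0% and 33.5% of the counts of the 10 genes in control, 7.88% and 8.24% for ZMYND11 kd1, and 11.8% and 12.6% for ZMYND11 kd2. The balance therefore moved toward cohesin in every knockdown library. On the log2 scale, the mean level of the condensin subunits less that of the cohesin subunits was -0.95 and -0.99 in control, -3.99 and -4.05 for ZMYND11 kd1, and -3.63 and -3.43 for ZMYND11 kd2. Counts of the 10 genes together were 1613 and 1612 CPM of library totals, without TMM scaling, in control, 420.7 and 397.1 for ZMYND11 kd1, and 825.2 and 861.4 for ZMYND11 kd2.

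**Figure D3:**
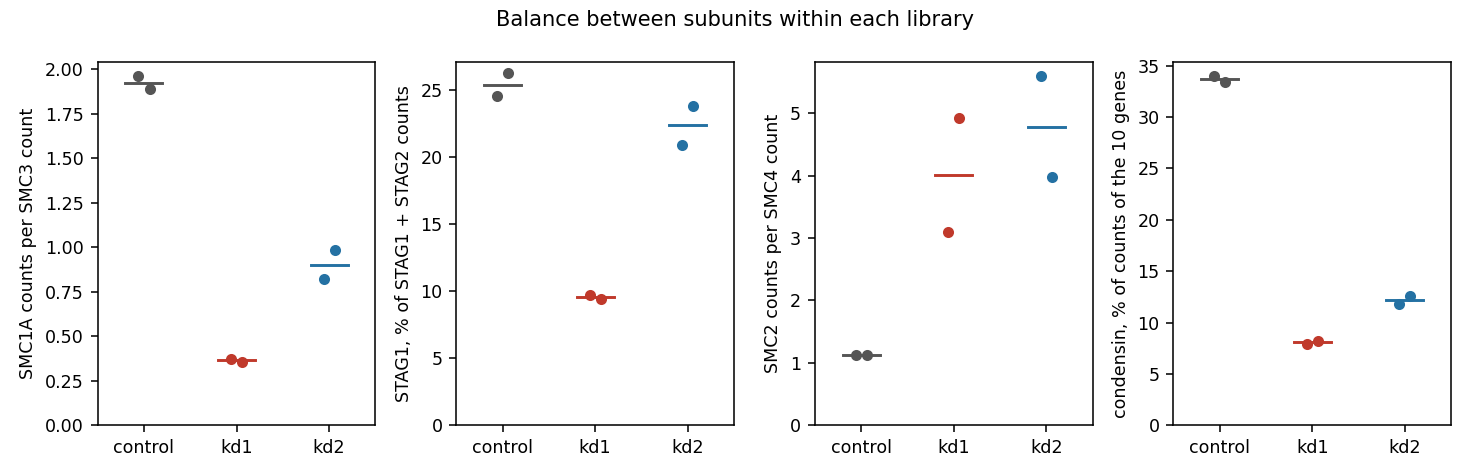
Ratios of counts within each library, on linear axes from 0, for the 2 libraries of each group (points) and their mean (line). From left to right: SMC1A counts per SMC3 count, STAG1 as a percentage of STAG1 and STAG2 counts, SMC2 counts per SMC4 count, and condensin as a percentage of the counts of the 10 genes, which is 33.5% to 34.0% in control and at most 12.6% in the knockdowns.

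Promoter sequences were examined because the condensin transcripts fell together. Of the 10 genes, 9 had an entry in the RefSeq promoter table of GRCh38.p14 (all but RAD21), which holds 250 bases before and 50 bases after each start, with 14 promoters for these genes. The cell cycle genes homology region (CHR) is an element known from promoters of genes expressed late in the cell cycle, and was searched as TTTGAA or TTCGAA on both strands. It was present in 4 of 5 condensin genes and 1 of 4 cohesin genes, against 15.6% of 12463 tested genes with an entry and 16.4% of all 35116 promoters. The CCAAT box (CCAAT, both strands), an element bound by the factor NF-Y, was present in 2 of 5 condensin genes and 2 of 4 cohesin genes, against 42.6% of tested genes and 34.6% of all promoters. Sites of the E2F type (TTTCCCGC, TTTGGCGC, TTTCGCGC or TTTGCCGC, both strands) were present in 3 of 4 cohesin genes (SMC1A, STAG1 and STAG2) and in 0 of 5 condensin genes, against 6.19% of tested genes and 3.31% of all promoters. The motifs searched did not overlap in the stretches shown. Several genes had more than 1 promoter in the table. The CHR of SMC2 and that of SMC4 were each in only 1 of 2 promoters. The E2F site of SMC1A was in only 1 of 2 and that of STAG2 in only 1 of 3. Which promoter these cells use was not tested. A match describes letters only and is not evidence of binding.

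Stretches that hold these matches are shown for the 5 condensin genes and, for comparison, for SMC3, whose expression moved least in ZMYND11 kd2. All are from GRCh38.p14 on the plus strand, which is the strand of each gene, and capitals mark a CHR (TTTGAA, or TTCAAA on the opposite strand) or a CCAAT box (CCAAT, or ATTGG on the opposite strand). Positions count back from the annotated start. The stretch of NCAPG (chr4:17810919-17810978) has its CHR at -35, that of SMC4 (chr3:160399555-160399649) at -75 and that of SMC2 (chr9:104094249-104094311) at -3, spanning the start. The stretch of NCAPD2 (chr12:6493883-6494101) has a CHR at -145 and CCAAT boxes at -199, -170, -70 and -30. The stretch of NCAPH (chr2:96335634-96335765) has a CCAAT box at -112 and no CHR, and that of SMC3 (chr10:110567524-110567694) has a CHR at -151.
NCAPG: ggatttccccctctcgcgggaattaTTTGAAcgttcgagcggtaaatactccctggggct
SMC4: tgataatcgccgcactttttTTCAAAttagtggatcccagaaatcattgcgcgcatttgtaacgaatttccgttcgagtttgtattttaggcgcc
SMC2: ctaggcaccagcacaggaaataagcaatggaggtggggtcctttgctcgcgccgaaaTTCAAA
NCAPD2: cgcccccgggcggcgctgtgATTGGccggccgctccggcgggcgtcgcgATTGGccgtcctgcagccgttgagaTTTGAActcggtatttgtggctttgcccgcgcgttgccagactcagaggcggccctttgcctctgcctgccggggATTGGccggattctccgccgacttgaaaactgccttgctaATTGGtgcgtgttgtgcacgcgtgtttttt
NCAPH: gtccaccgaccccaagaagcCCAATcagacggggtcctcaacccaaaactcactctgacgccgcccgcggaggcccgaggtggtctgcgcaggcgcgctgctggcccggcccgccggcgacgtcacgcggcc
SMC3: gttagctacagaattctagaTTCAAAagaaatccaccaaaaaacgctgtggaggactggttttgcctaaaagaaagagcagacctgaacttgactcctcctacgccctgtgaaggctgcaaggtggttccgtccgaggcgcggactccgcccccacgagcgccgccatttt
The CHR-bearing genes among these ranged in log2 fold change from NCAPG (-5.50 in ZMYND11 kd1) to SMC3 (-0.45), and NCAPH, without a CHR in this window, was at -5.06.

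Subunits of related complexes were examined next, from lists of genes around cohesin and condensin. Condensin II, which shares SMC2 and SMC4 and resides in the nucleus through interphase, has 3 further subunits. NCAPG2 and NCAPD3, its HEAT-repeat subunits, fell in both knockdowns, with log2 fold changes of -4.10 and -3.09 for ZMYND11 kd1, and -2.72 and -1.79 for ZMYND11 kd2 (NCAPD3 was at -2.37 in ZMYND11 kd1 with the GC and length correction). NCAPH2, its kleisin, was at 63.1 and 64.7 CPM in control, 61.8 and 57.8 CPM in ZMYND11 kd1, and 45.1 and 44.9 CPM in ZMYND11 kd2. NCAPH2 fell in ZMYND11 kd2 (-0.50, SE 0.06, adjusted p = 4.80e-06), while its value in ZMYND11 kd1 was -0.09 (SE 0.06, adjusted p = 0.180), or -0.45 with library totals and -0.55 with the GC and length correction, both of which passed the threshold. The kleisins of condensin I and II thus separated, from 0.868 and 0.842 NCAPH counts per NCAPH2 count in control to 0.0305 and 0.0234 for ZMYND11 kd1, and 0.0844 and 0.0832 for ZMYND11 kd2.

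In the SMC5/6 complex, the SMC family member that acts in DNA repair, the ATPases SMC5 and SMC6 fell in both knockdowns, with log2 fold changes of -1.54 and -1.82 for ZMYND11 kd1, and -0.64 and -0.84 for ZMYND11 kd2. Its non-SMC subunits were mixed. NSMCE2, a SUMO ligase, rose in both knockdowns (0.85 and 1.26), and NSMCE1, a RING-finger subunit, rose in ZMYND11 kd1 (0.81) and fell in ZMYND11 kd2 (-0.32). NSMCE4A fell in ZMYND11 kd2 (-0.97), and its log2 fold change of 0.21 in ZMYND11 kd1 turned to -0.14 with library totals and -0.10 with the correction. NSMCE3 had too few counts to be tested. Of the germline cohesin subunits, SMC1B (10.75 and 10.53 CPM in control) fell in both knockdowns (-3.67 and -3.72), STAG3 fell in both (-1.53 and -1.44), and REC8, the meiotic kleisin, rose in both (1.56 and 1.00) from 1.74 and 1.42 CPM in control. RAD21L1 was called in neither, with at most 18 counts in a library.

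Regulators of cohesin were grouped by the step at which they act. Factors that load, unload or position cohesin had small fold changes. Of 6 genes, 3 fell in ZMYND11 kd1, where 39.8% of all genes tested fell (36.9% in ZMYND11 kd2). These were NIPBL, the loader (-0.47), WAPL, the release factor (-0.53), and PDS5A (-0.19), with values of 0.41, 0.03 and 0.44 under the GC and length correction. In ZMYND11 kd2 MAU2, the partner of NIPBL, was lower (-0.16) and WAPL higher (0.18) at the threshold, and neither call held under all scalings. NIPBL and PDS5A in ZMYND11 kd2 were not called (-0.11 and -0.01), but were called lower with library totals (-0.28 and -0.18) and higher with the correction (0.26 and 0.17), and MAU2 in ZMYND11 kd1 (0.01) was called lower with library totals (-0.34). The values of PDS5B and CTCF were -0.05 and -0.06 for ZMYND11 kd1, and -0.01 and 0.12 for ZMYND11 kd2, and did not pass the threshold. Both were called in ZMYND11 kd1 as lower with library totals (-0.41 each) and as higher with the correction (0.66 and 0.32), as was CTCF in ZMYND11 kd2 with the correction (0.25). Of 6 genes of SMC3 acetylation, ESCO2, the acetyltransferase of S phase, DDX11, a helicase, and CHTF18 and DSCC1, of the alternative clamp loader, fell in both knockdowns, with log2 fold changes from -4.41 to -1.62 in ZMYND11 kd1 and from -2.98 to -2.41 in ZMYND11 kd2. HDAC8, the deacetylase, rose in both (0.69 and 0.58). ESCO1, the acetyltransferase that acts through interphase, rose in ZMYND11 kd2 (1.01) and was called in ZMYND11 kd1 (0.50) except with library totals (0.15). There were 1.24 and 1.45 ESCO1 counts per ESCO2 count in control, 37.7 and 44.2 for ZMYND11 kd1, and 23.3 and 19.7 for ZMYND11 kd2.

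**Figure D4:**
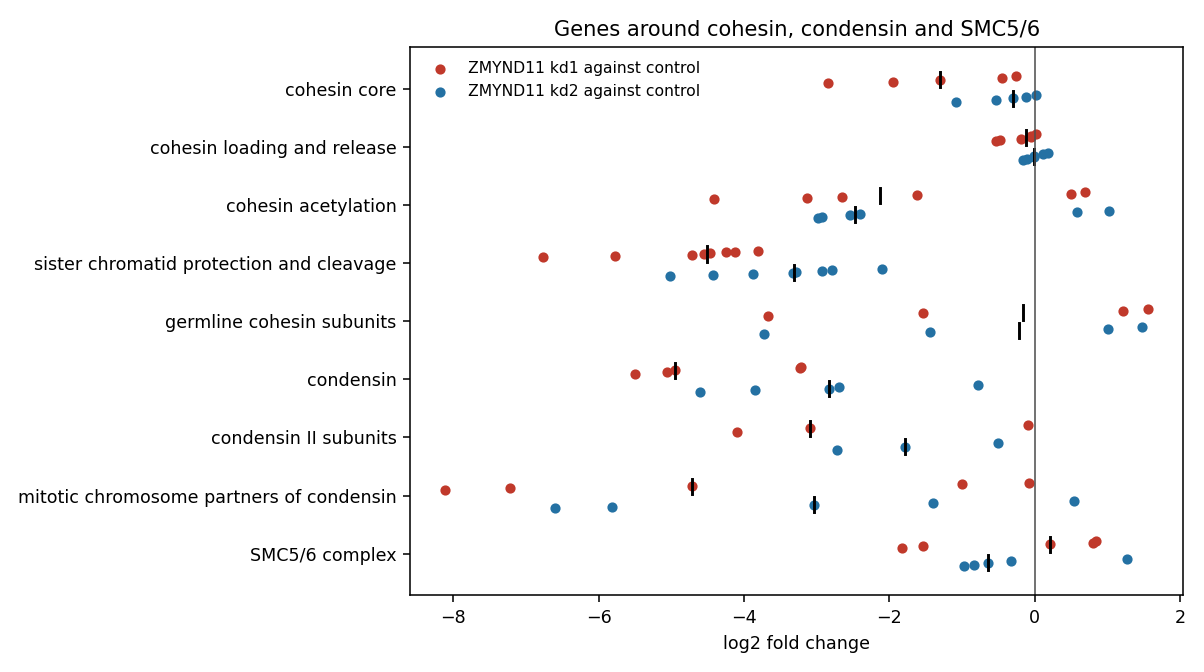
Change against control, on the log2 scale, of each tested gene in the lists around cohesin and condensin, for ZMYND11 kd1 and ZMYND11 kd2, with a short black bar at the median of each list. The list of sister chromatid protection and cleavage has medians of -4.51 and -3.31, and that of cohesin loading and release has medians of -0.12 and -0.01. With the GC and length correction every gene of cohesin loading and release but MAU2 turns positive in ZMYND11 kd1.

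All 8 genes that protect or cleave cohesin at mitosis fell in both knockdowns, and their median change on the log2 scale was -4.51 for ZMYND11 kd1 and -3.31 for ZMYND11 kd2. ESPL1 (separase), the protease that cuts RAD21, was at 94.6 and 87.8 CPM in control, 0.824 and 0.845 CPM in ZMYND11 kd1, and 2.80 and 2.80 CPM in ZMYND11 kd2. Its libraries did not overlap between control and either knockdown (log2 fold change -6.77, SE 0.12, and -5.02, SE 0.10). The others were PTTG1 (securin), CDCA5 (sororin), SGO1 and SGO2 (shugoshins), HASPIN, PLK1 and AURKB. SGO1 had 10 and 2 counts in ZMYND11 kd1 against 323 and 323 in control. Of 5 mitotic chromosome partners of condensin, 4 fell in both, to be set beside the same shares of all genes tested. They were TOP2A, the topoisomerase of the chromosome axis (-7.23 and -5.82), MKI67, the coat protein Ki-67 (-8.11 and -6.59, with -7.28 in ZMYND11 kd1 under the correction), and the kinesins KIF4A (-4.72 and -3.04) and KIF22 (-1.003 and -1.395). MCPH1, an inhibitor of condensin II, rose in ZMYND11 kd2 (0.54), and its value in ZMYND11 kd1 was -0.08 (adjusted p = 0.444), and was called lower with library totals (-0.43) and higher with the correction (0.62).

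Cell cycle markers moved beside the subunits. Of 6 such genes, 5 fell in both knockdowns, namely the cyclins CCNE1, CCNA2 and CCNB1, the kinase CDK1 and the replication clamp PCNA. Among all genes tested, 39.8% fell in ZMYND11 kd1 and 36.9% in ZMYND11 kd2. CDK1 was at 160.8 and 155.1 CPM in control, 7.68 and 8.14 CPM in ZMYND11 kd1, and 12.8 and 11.6 CPM in ZMYND11 kd2. PCNA was at 189.3 and 194.6 CPM in control, 87.1 and 80.8 CPM in ZMYND11 kd1, and 114.4 and 101.6 CPM in ZMYND11 kd2. CCND1, the G1 cyclin, rose in ZMYND11 kd2 (log2 fold change 0.52), and its value in ZMYND11 kd1 was 0.10 (adjusted p = 0.0949), and was called lower with library totals (-0.26) and higher with the GC and length correction (0.27). The part of cell cycle composition in the subunit values was not tested.

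Genes outside the lists whose levels followed the complexes most closely were found by Euclidean distance between profiles over the 6 libraries. Profiles were log2 CPM, with a small constant added to CPM, each centred on its own mean. Nearest to the mean cohesin profile were NUP153 (distance 0.0791) and NUP205 (0.0829), nuclear pore proteins, XPOT (0.0804), an exporter of tRNA, the lipid kinase PIKFYVE (0.0997) and SCAF11 (0.104), and RAD21, the nearest of the cohesin members, was at 0.319. Nearest to the mean condensin profile were SLC7A5 (0.146), an amino acid transporter, CDC6 (0.278), a replication licensing factor, PAX6 (0.278), ZNF492 (0.357) and STEAP3 (0.438). SLC7A5 was at 3082 and 2983 CPM in control, 145.7 and 140.7 CPM in ZMYND11 kd1, and 356.8 and 387.5 CPM in ZMYND11 kd2. The nearest condensin member was SMC4 (0.861) and the farthest SMC2 (2.17). The 5 genes were picked as the nearest of all tested genes outside the lists, so their smaller distances are not a result about condensin.

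Some of the reads cannot be assigned with certainty, since the use of strand in counting is not given in the sources used here. Exons of LCORL cover 33.7% of NCAPG exon sequence on the opposite strand, PCCB covers 21.2% of STAG1 and TRIM59 covers 19.0% of SMC4. LCORL had 421 to 816 counts and TRIM59 had 450 to 1071 counts in every library, which exceeds the NCAPG counts in the knockdowns and, in ZMYND11 kd1, the SMC4 counts. PCCB had 1126 to 2390 counts, above the 552 and 446 STAG1 counts in ZMYND11 kd1, and MRPL51, which covers 5.92% of NCAPD2, had 3710 to 9714, above the 682 to 1177 NCAPD2 counts in the knockdowns. Named pseudogene copies of RAD21, SMC4, NCAPG and NCAPD2 had at most 3 counts. With the GC and length correction, log2 fold changes in ZMYND11 kd1 were -2.09 for SMC1A, -1.40 for STAG1, -2.64 for SMC2, -4.43 for SMC4, -5.08 for NCAPG, -4.57 for NCAPH and -3.01 for NCAPD2.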

How the data were processed

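RNA of 6 libraries of 22Rv1 cells was sequenced after poly(A) selection or rRNA removal, without a statement of which. The deposited matrix holds unnormalized read counts for each gene symbol. The authors aligned trimmed reads to hg38 with STAR (2.7.9a). FastQC (0.11.9) and HTSeq (0.13.5) are listed in the submitters' processing notes. The annotation and strand setting used for counting are not given in the sources used here.

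Tests on the counts used edgeR 4.0.16 (R 4.3.3), with TMM normalization, filterByExpr, the quasi-likelihood test in one fit of the 3 groups (3 residual degrees of freedom) and Benjamini-Hochberg adjustment over 16510 genes, with calls at 0.05. Standard errors are the absolute log2 fold change over the root of the F statistic. Levels are CPM of TMM-scaled libraries. Scripts were tested on simulated data. Gene positions and exon lengths came from GENCODE 44, which matched 32852 symbols and left 2470 unmatched. Motifs were counted once per gene over all its promoters.

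Alternatives were DESeq2 size factors, library totals, no filter, a replicate block, the Wald test of DESeq2 1.42.0, a minimum of 10 counts in all libraries, a fit of only the groups compared, and each library left out in turn. A further alternative was a lowess correction (span 0.3) for GC content and length of the longest transcript of each gene. The rule for named genes took all members, all genes of the lists, as counts with values where a result turned on them, and the 5 genes nearest to each complex's mean profile. The members and lists were chosen with earlier results of these data known. A planned comparison of protein sequences was not run.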

Additional observations from a re-analysis of the deposited data

How the results depend on the processing

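Of 30 log2 values of the subunits (10 genes in 3 comparisons), 23 kept direction and call under all 14 alternatives, as did 14 of 15 condensin values. With the GC and length correction, SMC3 and STAG2 in ZMYND11 kd1 became 0.185 and 0.393, RAD21 in ZMYND11 kd2 became 0.049, and SMC3 between the knockdowns became -0.071. The condensin minus cohesin mean moved from -0.971 to -0.762 in control and from -4.02 to -4.26 in ZMYND11 kd1. SMC3 in ZMYND11 kd2 was -0.16 with library totals (adjusted p = 0.0146), -0.029 with at least 10 counts in every library, 0 with only the groups compared, and -0.046 to 0.069 with single libraries left out (-0.014 without the first control). STAG2 between the knockdowns became 0.148 with library totals. The causes were not tested.

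Library totals shifted the median log2 fold change of all genes to -0.38, -0.20 and 0.20 in ZMYND11 kd1, ZMYND11 kd2 and between the knockdowns, and the share of calls that were lower to 64.7%, 59.2% and 38.9%, from 51.0%, 50.2% and 49.2%. The replicate block gave 12545, 11688 and 10978 calls, against 12882, 12118 and 11355 without it, and changed no call of a subunit. Libraries that share a number did not deviate together across genes (correlations 0.006, -0.026 and -0.044). With 2 libraries per group this cannot show whether they were prepared together, and the main fit did not pair them. Low counts limit precision for NCAPG, NCAPH and SMC4 in the knockdowns.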
